A study of Homo sapiens with 12 samples.

Results

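Small nucleolar RNA (snoRNA) genes were examined in MDA-MB-231 cells, an established human breast cancer line, after transfection with plasmids carrying Dicer, the enzyme that cuts microRNA precursors. The 53 genes described here were selected on measured values: their symbol starts with SNORD or SNORA and they held 30 or more counts summed over the 12 libraries. The count files list 518 such genes among 64252 gene IDs. They are 309 SNORD genes, the C/D box class, of which 28 met the rule, and 209 SNORA genes, the H/ACA box class, of which 25 did. The values that chose the members were summed over all 4 groups, so a gene high in a single group could pass on that group alone. Just inside the limit were SNORA71D and SNORD11 with 30 counts each and SNORD73B with 31, and just outside it SNORD88A, SNORA77 and a gene ID named SNORA75 with 29 each. No count was recorded in any library for 348 of the 518 genes, and 117 held 1 to 29 counts. The members held 91.3% of all counts in snoRNA genes.

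The 4 groups of 3 libraries received a plasmid, by lipofection, for wild-type Dicer or for Dicer with mutation 1, 2 or 3. The labels number the mutations and do not name them, and every group is transfected, so no untransfected control enters. Libraries were made from poly(A)-selected RNA and held 13507341 to 17078273 counts each. Whether libraries of a group are separate cultures is not in the labels, and the p-values reflect library-to-library spread that may be technical. Wild-type replicate 1 stood apart. Over 17806 genes its log2 CPM values correlated at 0.956 and 0.955 with wild-type replicates 2 and 3, against 0.996 to 0.997 for all other pairs within a group. Some sums, counts of calls and single-gene values against wild type are therefore also given without it. All other values against wild type include it. DICER1 itself had 27.4, 45.2 and 47.4 CPM (counts scaled by library size) in the wild-type libraries, and its difference from wild type passed no test for mutation 1 (log2 fold change 0.13), mutation 2 (0.18) or mutation 3 (-0.02, edgeR adjusted p = 0.916). Without wild-type replicate 1 the values were -0.08, -0.02 and -0.23, and the last was called (adjusted p = 0.000373). Of 8 markers of this line or of breast epithelium, none was at 0 in all libraries, and the 8 summed to 4636 to 6718 CPM per library. VIM was at 733 to 1581 CPM and CD44 at 661 to 1662 CPM as group means, and the rest are not given singly. Of 8 markers of other cell types or absent from the line, CD3E was at 0 and the 8 summed to 12.7 to 36.8 CPM per library. Among them PECAM1, an endothelial adhesion gene, had 2.76, 17.1 and 15.3 CPM in the wild-type libraries and below 1 CPM in all mutation libraries. CDH5, another endothelial gene, had 0.197, 0.838 and 0.712 CPM in wild type, 0.0626 CPM in 1 mutation 3 library and 0 in the other 8. The collagen gene COL1A1, at 11.4 to 35.7 CPM in all libraries, was called higher with mutation 1 (0.95) and lower with mutation 2 (-0.47). The part of these genes in the comparisons with wild type was not tested.

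Small nucleolar RNAs are short RNAs that pair with ribosomal RNA and, with their proteins, direct its chemical modification: C/D box RNAs guide ribose methylation by fibrillarin (FBL), and H/ACA box RNAs guide pseudouridylation by dyskerin (DKC1). A few, such as the U3, U14 and U17 families, act in cleavage of the ribosomal RNA precursor. Most human snoRNAs lie in introns of a host gene, many of which encode ribosomal proteins or are noncoding genes named for this role (SNHG). They are cut out of the debranched intron and trimmed, and the mature RNA has no poly(A) tail. Counts in poly(A)-selected libraries can therefore come from unspliced host transcripts, from released introns or from the mature RNA, and counts per gene cannot tell these apart. In these libraries snoRNA genes held 0.00608% of all counts.

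The sequences of 7 genes carry the main results and are shown 5′ to 3′, as in the GENCODE release 29 transcripts (GRCh38). In the C/D box genes the capitals mark a C box (ATGATGA or GTGATGA) and a D box (CTGA in the last 16 bases), and in the H/ACA box genes the ACA within the last 8 bases. The first is SNORD14E, which held the most counts (chr11:123058077-123058161, minus strand, 85 bases). SNORD14D (chr11:123058909-123058995) and SNORD14C (chr11:123059335-123059422) lie in the same host, HSPA8, on the same strand and held no counts. SNORD14A (chr11:17074654-17074744, minus strand) is the U14 family member in an intron of RPS13.
SNORD14E: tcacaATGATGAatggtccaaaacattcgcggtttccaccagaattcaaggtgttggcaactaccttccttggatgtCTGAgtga
SNORD14D: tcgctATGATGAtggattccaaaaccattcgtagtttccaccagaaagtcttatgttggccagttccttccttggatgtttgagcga
SNORD14C: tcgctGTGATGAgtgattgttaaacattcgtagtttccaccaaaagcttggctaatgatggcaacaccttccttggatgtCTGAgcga
SNORD14A: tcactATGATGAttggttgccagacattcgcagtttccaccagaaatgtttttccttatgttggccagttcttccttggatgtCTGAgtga
SNORD14E was closest to SNORD14D, with 19 edits and 78.2% identity over the full length, and shared 76.9% with SNORD14A and 75% with SNORD14C. SNORD14D has a C box but no CTGA in its last 16 bases. The next 3 are shown because they are high members in noncoding hosts: SNORD104 (chr17:64146083-64146152, plus strand, SNHG25), SNORA73B (chr1:28508559-28508762, plus strand, SNHG3) and SNORA71C (chr20:38429670-38429803, minus strand, SNHG17).
SNORD104: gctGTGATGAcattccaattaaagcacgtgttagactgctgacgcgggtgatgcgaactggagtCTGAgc
SNORA73B: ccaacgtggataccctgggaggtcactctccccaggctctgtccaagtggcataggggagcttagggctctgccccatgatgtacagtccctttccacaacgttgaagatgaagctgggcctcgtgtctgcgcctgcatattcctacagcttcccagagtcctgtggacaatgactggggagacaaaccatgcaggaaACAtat
SNORA71C: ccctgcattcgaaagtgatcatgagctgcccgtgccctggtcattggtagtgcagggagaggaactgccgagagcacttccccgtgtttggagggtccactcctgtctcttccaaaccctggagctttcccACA
SNORA73B was 93.2% identical to SNORA73A, in the same host, which held no counts. Read pairs that overlap several genes or map to several places were not counted, so a gene without counts is not shown to be absent. SNORA71C was 86.6% identical to SNORA71D and 82.8% to SNORA71A, so reads of this family may be hard to place and its split between genes is uncertain. Of the 52 members with a single transcript sequence, 7 had another snoRNA gene at 90% identity or more. Among the 52, 20 of 27 C/D box genes held ATGATGA or GTGATGA (74.1%, against 68.6% of 303 SNORD genes), 23 of 27 held the D box (85.2% against 89.8%), and 24 of 25 H/ACA box genes held the terminal ACA (96% against 82.6% of 207 SNORA genes). Only the given strand of each transcript was searched.

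Counts in snoRNA genes were several times higher with mutation 1 than in the other 3 groups. Summed over all 309 SNORD genes, the wild-type libraries had 10.6, 14.4 and 17.2 CPM, mutation 1 had 118.3, 120.4 and 131.8, mutation 2 had 18.2, 18.2 and 17.1, and mutation 3 had 24.9, 25.2 and 24.1. Every mutation 1 library stood above every other library, and those of mutation 3 above those of wild type and mutation 2. The mean for mutation 1 was 8.80 times that of wild type, or 7.83 times without wild-type replicate 1. SNORD14E made up much of this: without it the sum was 14.0 ± 3.36 CPM in wild type and 58.8 ± 1.01 CPM with mutation 1 (SD, n = 3), a ratio of 4.20. Summed over all 209 SNORA genes, the wild-type libraries had 4.86, 10.2 and 10.3 CPM, mutation 1 had 39.6, 41.5 and 39.5, mutation 2 had 13.5, 12.1 and 13.1, and mutation 3 had 13.3, 13.2 and 15.04. Wild-type replicate 1 was the lowest library in both classes. The ratio of mutation 1 to wild type was 4.75 for the H/ACA box class and 3.92 without that library. For mutation 2 the ratios were 1.27 (C/D box) and 1.52 (H/ACA box), and 1.13 and 1.26 without wild-type replicate 1. For mutation 3 they were 1.76 and 1.64, and 1.57 and 1.35 without it. With 3 libraries against 3 an exact permutation test could not fall below 0.10, so no p is given for the sums.

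The genes under the limit of 30 counts, which the rule left out, followed a like order. The 281 SNORD genes among them summed to 0.591, 1.12 and 1.55 CPM in wild type and to 4.36, 5.24 and 3.91 CPM with mutation 1, a ratio of 4.14. The 184 SNORA genes summed to 0.919, 1.899 and 1.36 CPM in wild type and 5.35, 6.38 and 5.27 CPM with mutation 1, a ratio of 4.07. In both sets the lowest mutation 1 library was above the highest library of any other group. Of 99 such genes with a count in either group, 71 had the higher mean with mutation 1 and 28 in wild type. Other annotated classes of noncoding genes and pseudogenes moved in the same direction and less far. The ratio of mutation 1 to wild type was 2.43 for snRNA, 2.38 for miRNA, 2.17 for miscellaneous RNA and 1.33 for sense intronic genes. It was 1.96 for lincRNA genes, 1.20 for antisense genes and 1.36 for processed pseudogenes. Without wild-type replicate 1 these were 2.06, 1.95, 1.69, 1.18, 1.87, 1.11 and 1.37, in the same order. All but the processed pseudogenes also had their lowest wild-type sum in replicate 1. The part of these classes in the snoRNA sums was not tested.

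**Figure D1:**
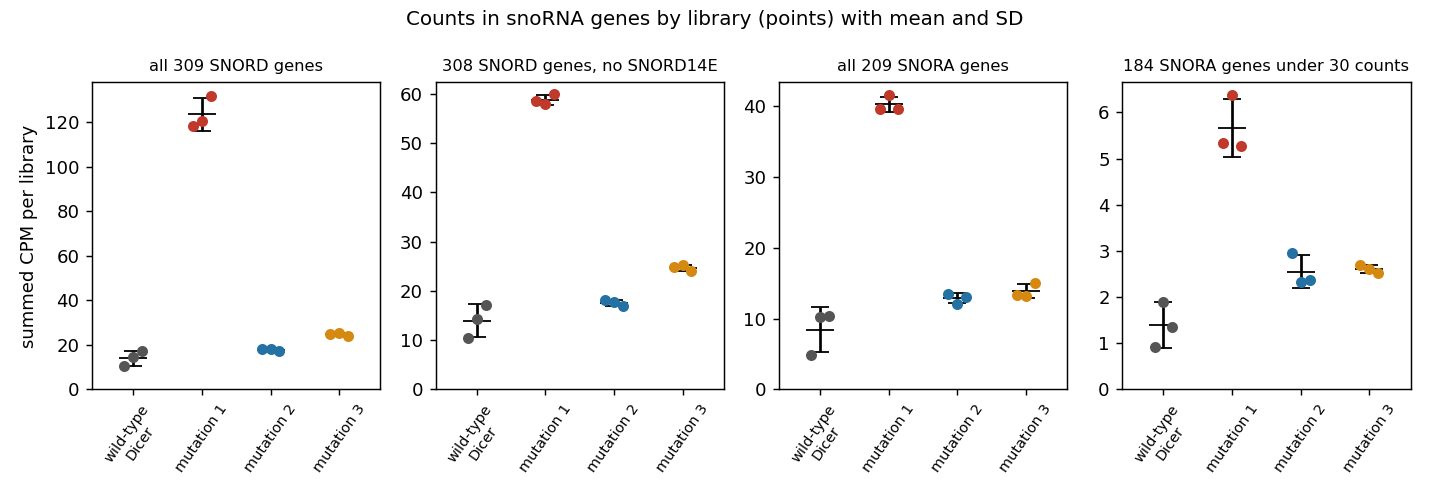
Summed CPM per library (points, vertical axes from 0) for all SNORD genes, the SNORD genes without SNORD14E, all SNORA genes and the SNORA genes under 30 counts, by group, with mean and SD. The 3 mutation 1 libraries sit above all others in each panel, and leaving out SNORD14E lowers their mean from 123.5 to 58.8 CPM.

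Gene by gene, differences were tested with edgeR's quasi-likelihood test over all 12 libraries, and a call means an adjusted p (Benjamini-Hochberg, over all genes tested) under 0.05. The usual filter on low counts kept 28 of the 53 members, 18 C/D box and 10 H/ACA box genes. Of these, 19 reached the filter's minimum of 0.66 CPM in fewer than 3 libraries outside mutation 1, so they entered the test through the group in which they were high. Their counts are therefore a description: against wild type, 25 of the 28 were called higher with mutation 1, where 32.5% of all 15094 genes tested were, and 1 was called lower, where 36.5% were. All 53 members were tested in a second fit over the 17806 genes with 30 or more counts. This limit is the rule that chose the members and counts mutation 1, so the values of this fit are also a description. In it 37 were called higher and 1 lower with mutation 1, 38 in all, where 62.8% of genes were called in either direction. The 37 were 20 of 28 C/D box and 17 of 25 H/ACA box genes. The median log2 fold change over the 53 was 2.39, or 2.34 with genes absent from wild type set to their lower bound, beside -0.05 over all genes tested. It was 2.53 for the C/D box and 2.39 for the H/ACA box genes, or 2.32 and 2.39 with the genes absent from wild type at their bounds. Without wild-type replicate 1, the usual filter kept 38 members, of which 31 were called higher and 1 lower, where 82.7% of all genes were called in either direction.

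With mutations 2 and 3 few members were called. Against wild type, 4 of the 28 were called higher with mutation 2 and none lower, where 16.9% of all genes were called higher and 20.1% lower; the higher share is near that of all genes and the lower one below it. DESeq2 called 3, all higher. With mutation 3, 7 were called higher and 1 lower, where 28.1% and 31.2% of genes were; the higher share is near that of all genes and the lower one below it. Among all 53, the second fit called 5 for mutation 2, where 31.7% of genes were called, and 11 for mutation 3, where 52.9% were. Both shares are below those of all genes. Most members held few counts per library in these groups, where differences can go uncalled, so nothing is read from the lower shares. Without wild-type replicate 1 the calls were 5 higher and 2 lower of 38 for mutation 2, where 67.9% of all genes were called, and 8 higher and 3 lower for mutation 3, where 77.1% were. Between the mutations, 21 of 28 were called higher and 1 lower in mutation 1 against mutation 2, where 31.8% of genes were higher and 33.6% lower. Against mutation 3 the counts were also 21 and 1, where 20.2% were higher and 22.5% lower. Mutation 2 against mutation 3 gave 7 higher and 4 lower, where 27.2% and 25.7% were. These comparisons share libraries and are not independent of each other.

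A test of any difference among the 4 groups called 27 of the 28 members, where 83.0% of all genes were called. Over all 53 members the highest group mean lay in mutation 1 for 40, in mutation 3 for 8, in mutation 2 for 5 and in wild type for none. For 30 of them all 3 mutation 1 libraries lay above the other 9, as they did for 18.1% of all genes with 30 or more counts. Nothing is read from this difference, since the sum that chose the members includes mutation 1.

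**Figure D2:**
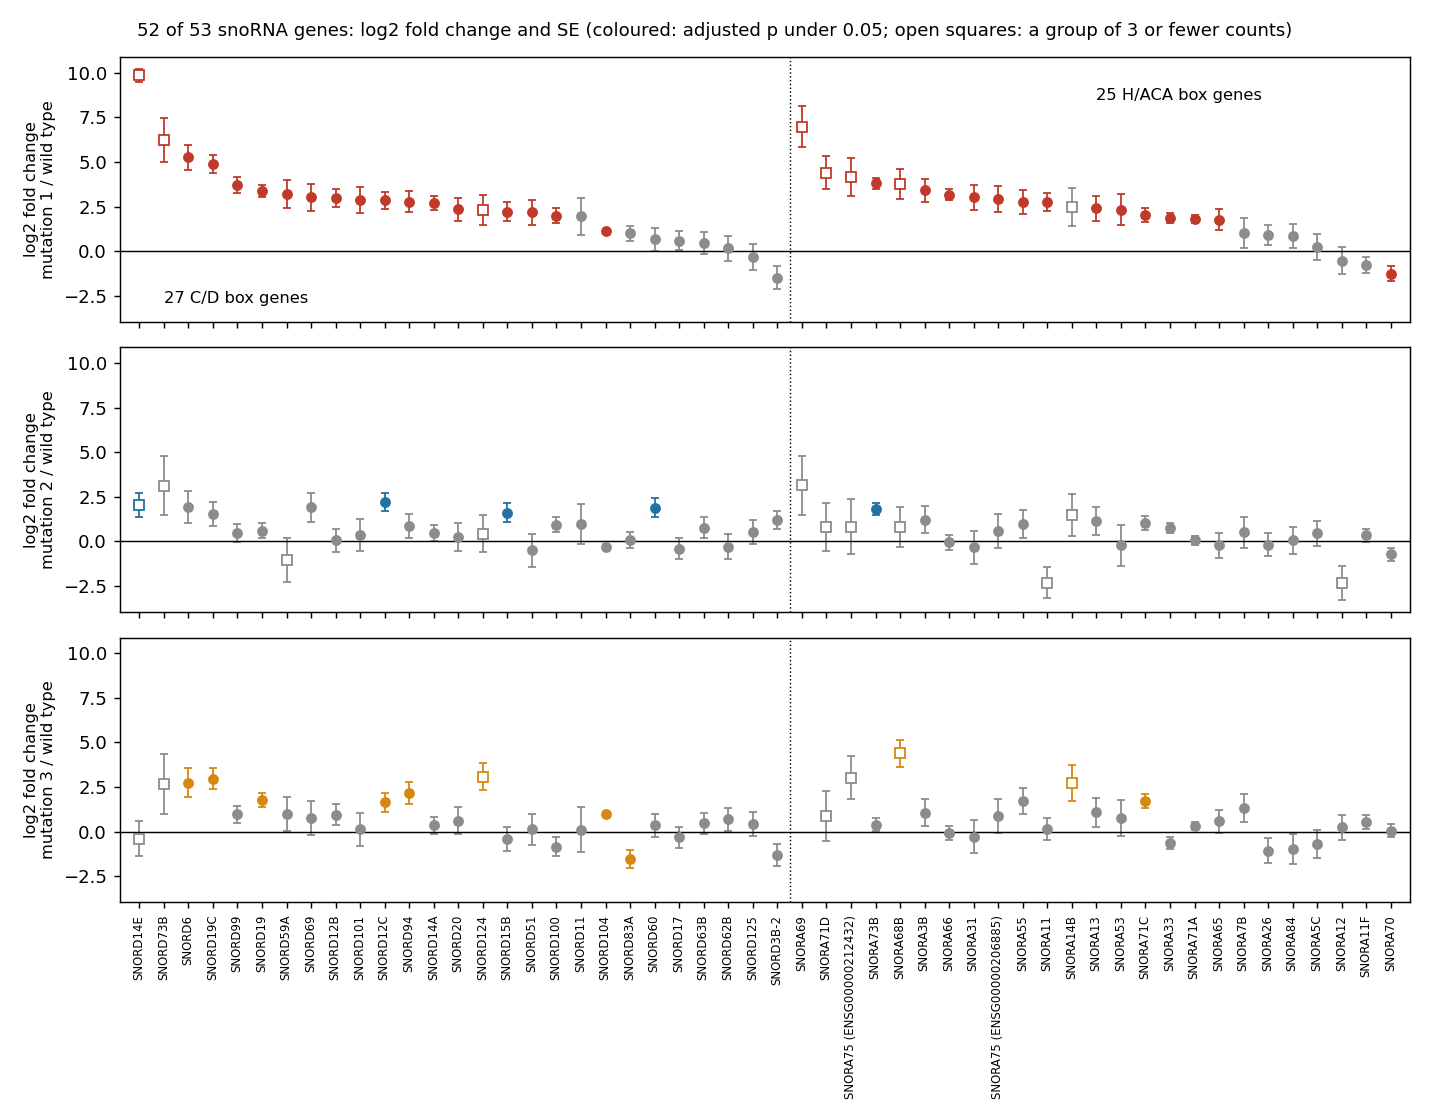
Log2 fold change against wild type (vertical axes) with its SE for 52 of the 53 genes, ordered by their change with mutation 1 within each class, one panel per mutation. Coloured symbols passed an adjusted p under 0.05, and open squares mark genes for which one group held 3 or fewer counts. SNORA69 has no point for mutation 3, since both groups held 0 counts. Coloured points are far more frequent for mutation 1 than for mutations 2 and 3.

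SNORD14E was almost unseen outside mutation 1. This U14 gene lies in a 332-base intron of HSPA8, which encodes the constitutive heat shock protein HSC70. Its counts were 1, 2 and 0 in wild type, 849, 932 and 902 with mutation 1, 2, 7 and 4 with mutation 2, and 1, 0 and 1 with mutation 3. The mutation 1 libraries stood far above all 9 others. The ratio of library-size-scaled counts, mutation 1 to wild type, was 1044 with a 95% exact counting interval of 357 to 5066, and against mutation 2 the log2 fold change was 7.84 ± 0.30 (SE). HSPA8 itself rose by a log2 fold change of 0.77 ± 0.05 with mutation 1 and fell by 0.59 with mutation 3. Per 10000 HSPA8 counts, SNORD14E had 207, 213 and 252 counts in the mutation 1 libraries and at most 2.38 in any other. SNORD14C and SNORD14D, elsewhere in the same gene, held 0 counts in all 12 libraries. Read pairs that overlap more than 1 gene were not counted. A snoRNA gene that overlaps a host exon can therefore hold 0 counts whatever its level. SNORD14A, in RPS13, had 3, 10 and 5 counts in wild type, 35, 35 and 32 with mutation 1, 8, 8 and 8 with mutation 2, and 8, 3 and 10 with mutation 3. It rose with mutation 1 (log2 fold change 2.71 ± 0.39), and its neighbour SNORD14B held no counts. Intervals on ratios cover counting error only.

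SNORD104, next to SNORD14E in counts, rose with both mutation 1 and mutation 3. This C/D box gene lies in a 229-base intron of the noncoding gene SNHG25. It had 78, 101 and 123 counts in wild type, 178, 194 and 187 with mutation 1, 73, 72 and 94 with mutation 2, and 190, 197 and 158 with mutation 3. Mutations 1 and 3 lay above the other 2 groups without overlap, and the difference between them did not pass (log2 fold change 0.15 ± 0.15, adjusted p = 0.460). Against wild type the log2 fold change was 1.11 ± 0.16 for mutation 1 and 0.96 ± 0.16 for mutation 3. The spliced host held only 156 counts in all, fewer than the 1645 in its snoRNA. SNHG25 rose by 1.52 ± 0.42 with mutation 1 and 1.55 ± 0.41 with mutation 3, and gave 1.02 (adjusted p = 0.0845) with mutation 2, where the snoRNA gave -0.31. Without wild-type replicate 1 the snoRNA was called lower with mutation 2 (-0.41, edgeR adjusted p = 0.0111). Per kilobase of gene length, SNORD14E had the highest mean level over the 12 libraries (191.6 CPM), followed by SNORD104 (131.9) and, among others far below, SNORD99 (22.3), SNORA71C (17.2) and SNORA73B (16.6).

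Among the other members in noncoding hosts, SNORA73B led. It belongs to the U17 family, which acts in cleavage of the small-subunit ribosomal RNA precursor. Its counts were 6, 11 and 16 in wild type, 131, 145 and 123 with mutation 1, 37, 29 and 47 with mutation 2, and 16, 8 and 16 with mutation 3. Mutation 1 was highest and mutation 2 next, with no overlap between these 2 or with the rest. The log2 fold change against wild type was 3.8 ± 0.32 for mutation 1 (adjusted p = 1.6e-06) and 1.80 ± 0.33 for mutation 2 (adjusted p = 0.00192). Its host SNHG3 rose by 3.11 with mutation 1, and by 2.01 with mutation 3, where the snoRNA gave 0.40 (adjusted p = 0.377). SNORD99, a C/D box gene in SNHG12, had 6, 5 and 7 counts in wild type and 70, 67 and 68 with mutation 1. It rose by 3.70 ± 0.42 with mutation 1, beside 2.02 for SNHG12. With mutation 2 it had 6, 15 and 3 counts and with mutation 3 it had 9, 13 and 11, and neither difference from wild type passed (0.45 and 0.98).

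SNHG17 carries 3 members. SNORA71C had 4, 21 and 19 counts in wild type, 53, 59 and 39 with mutation 1, 24, 35 and 26 with mutation 2, and 42, 41 and 47 with mutation 3. It rose with mutation 1 (2.0 ± 0.39) and with mutation 3 (1.70 ± 0.39), and wild-type replicate 1 was the lowest library; without it the value for mutation 3 was 1.27 in the fit of all members, still called. SNORA71A had 10, 14 and 12 counts in wild type, 37, 42 and 30 with mutation 1, 8, 13 and 16 with mutation 2, and 13, 14 and 14 with mutation 3. It rose with mutation 1 alone among the comparisons with wild type (1.81 ± 0.22), and gave 0.31 (adjusted p = 0.424) with mutation 3. SNORA71D had 1, 0 and 0 counts in wild type and 11, 8 and 6 with mutation 1, a ratio of 29.2 with a counting interval of 4.78 to 1198. Their shared host SNHG17 rose by 0.41 (adjusted p = 0.0480) with mutation 1 and gave 0.07 (adjusted p = 0.743) with mutation 3. In ZFAS1, SNORD12B had 1, 7 and 7 counts in wild type and 33, 29 and 40 with mutation 1, and rose by 2.98 ± 0.51 where ZFAS1 rose by 1.27.

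Of the 12 members in ribosomal protein genes, 11 were called higher with mutation 1 in the fit of all members, where 62.8% of all genes were called in either direction. For the 10 with counts in wild type the log2 fold changes ran from 0.99 to 4.17, and the median over the 12 was 2.34 with the other 2 at their lower bounds. Their 10 host genes encode proteins of both ribosomal subunits. SNORA66, in RPL5, had 4, 6 and 5 counts in wild type, 36, 53 and 30 with mutation 1, 3, 4 and 7 with mutation 2, and 5, 3 and 5 with mutation 3. It rose by 3.17 ± 0.30 where RPL5 rose by 0.21. SNORA66 overlaps FAM69A on the other strand, and counting ignored strand, so reads of that gene cannot be told apart from it. SNORA3B, in RPL27A, had 0, 4 and 2 counts in wild type and 20, 18 and 19 with mutation 1 and rose by 3.40 ± 0.61. Without wild-type replicate 1 it rose by 2.88.

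RPS12 carries 3 members, of which SNORA33 and SNORD100 had the same order of group means. SNORA33 had 7, 17 and 12 counts in wild type, 33, 43 and 37 with mutation 1, 16, 21 and 22 with mutation 2, and 8, 5 and 8 with mutation 3. SNORD100 had 5, 13 and 10 in wild type, 36, 38 and 22 with mutation 1, 13, 22 and 17 with mutation 2, and 2, 4 and 8 with mutation 3. Both were called higher in mutation 2 than in mutation 3, by 1.39 ± 0.31 for SNORA33 and 1.77 ± 0.47 for SNORD100. Their host went the other way: RPS12 had its highest mean, 966 CPM, with mutation 3 and 727 CPM with mutation 2. SNORD101 had 0, 8 and 2 counts in wild type, 28, 19 and 17 with mutation 1, 5, 4 and 3 with mutation 2, and 5, 5 and 0 with mutation 3, so its order below mutation 1 could not be read at this depth. With mutation 1 the 3 genes rose by 1.88, 1.98 and 2.87, in the order given, beside 0.20 for RPS12. Without wild-type replicate 1 they rose by 1.64, 1.73 and 2.33, and SNORD100 was called lower with mutation 3 (-1.11).

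GNL3, which encodes the nucleolar protein nucleostemin, also carries 3 members, all C/D box genes. SNORD19C had 0, 2 and 2 counts in wild type, 40, 43 and 28 with mutation 1, 5, 2 and 5 with mutation 2, and 12, 7 and 12 with mutation 3. SNORD19 had 2, 3 and 3 in wild type, 25, 26 and 22 with mutation 1, 4, 2 and 6 with mutation 2, and 9, 8 and 9 with mutation 3. Both were highest with mutation 1 and next with mutation 3. They rose with mutation 1 (4.88 ± 0.50 and 3.35 ± 0.32) and with mutation 3 (2.96 ± 0.58 and 1.77 ± 0.36). SNORD69 had 0, 3 and 2 counts in wild type, 11, 16 and 10 with mutation 1, 8, 4 and 7 with mutation 2, and 0, 3 and 5 with mutation 3, and its change with mutation 3 did not pass (0.77, adjusted p = 0.512). GNL3 rose by 0.49 with mutation 1 and 0.37 with mutation 3. SNORD6, in TAF1D, a gene for a subunit of the RNA polymerase I selectivity factor, had 0, 0 and 4 counts in wild type, 56, 53 and 37 with mutation 1, 4, 2 and 10 with mutation 2, and 9, 7 and 11 with mutation 3. It rose by 5.26 ± 0.68 with mutation 1 and 2.76 ± 0.83 with mutation 3, and TAF1D by 2.18 and 1.78. Without wild-type replicate 1, SNORD6 rose by 4.78 and 2.26. The other 7 snoRNA genes placed in TAF1D held no counts, which does not show absence, since pairs that overlap more than 1 gene were not counted. SNORA11, in MAGED2, had 1, 7 and 4 counts in wild type, 26, 20 and 24 with mutation 1, 1, 1 and 0 with mutation 2, and 3, 3 and 6 with mutation 3. It rose by 2.75 ± 0.48 with mutation 1, where MAGED2 rose by 0.72.

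**Figure D3:**
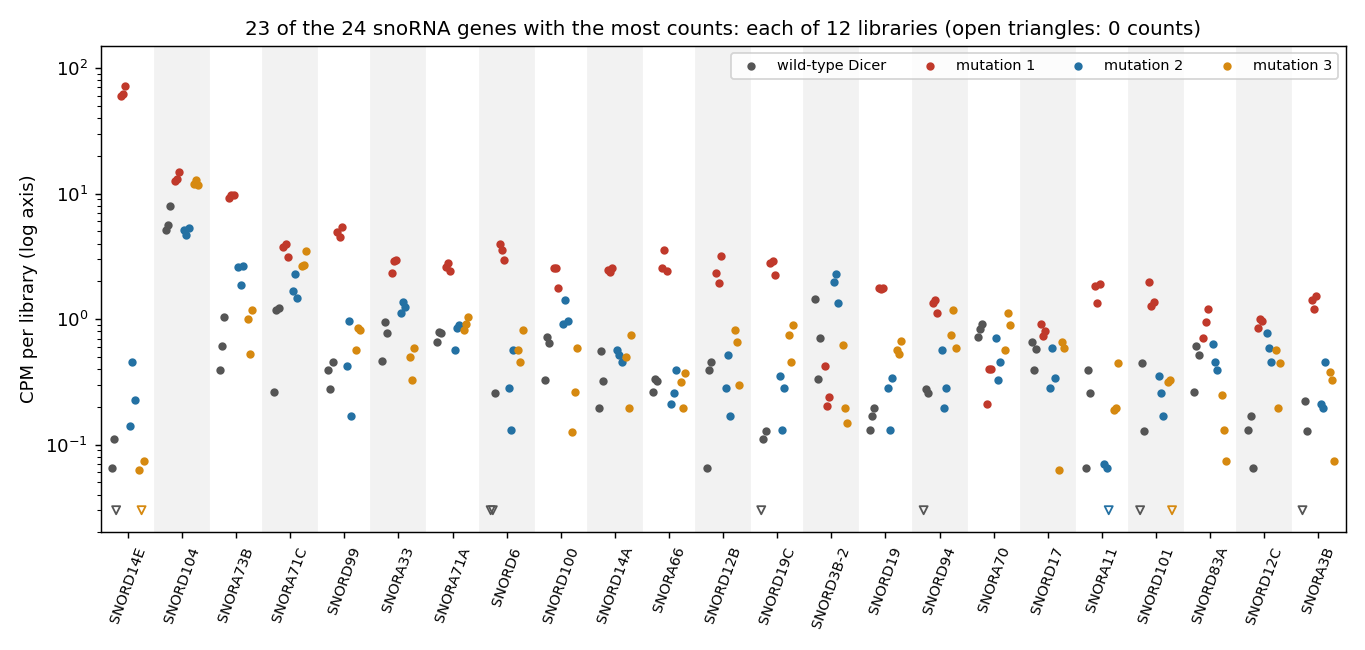
CPM in each of the 12 libraries (log axis) for 23 of the 24 snoRNA genes with the most counts, coloured by group, with open triangles at the bottom for libraries at 0. Mutation 1 lies apart for SNORD14E and SNORD99, mutations 1 and 3 lie together above the rest for SNORD104, and mutation 2 has the highest mean for SNORD3B-2.

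Some members did not follow the rise with mutation 1. SNORD3B-2, a copy of the U3 gene, is transcribed from its own promoter and has no host. It had 22, 6 and 11 counts in wild type, 6, 3 and 3 with mutation 1, 28, 35 and 24 with mutation 2, and 10, 3 and 2 with mutation 3. Scaled by library size, the mutation 2 libraries had 1.35 to 2.27 CPM and those of wild type 0.335 to 1.44 CPM, so these 2 groups overlapped, while mutation 2 lay above mutations 1 and 3 without overlap. It was called lower in mutation 1 than in mutation 2 (log2 fold change -2.65 ± 0.60, adjusted p = 0.00241) and higher in mutation 2 than in mutation 3 (2.46 ± 0.57). Its difference between mutation 1 and wild type, -1.48, did not pass (edgeR adjusted p = 0.0626). Without wild-type replicate 1 that value was -0.80 and not called. Its difference between mutation 2 and wild type, 1.18, did not pass with all libraries (adjusted p = 0.0883) and was 1.85 and called in the fit of all members without wild-type replicate 1. The U3 gene has near-identical copies, so its count is uncertain. SNORA70, in an intron of 58180 bases of a long noncoding gene known here by its ID ENSG00000258077, had 11, 15 and 14 counts in wild type, 3, 6 and 5 with mutation 1, 10, 5 and 8 with mutation 2, and 9, 17 and 12 with mutation 3. This gene was 66.0% identical to its closest snoRNA gene, another gene ID named SNORA70, and has no ACA in its last 8 bases. It fell with mutation 1 (-1.27 ± 0.40, adjusted p = 0.0151), as did its host (-0.88). Without mutation 1 replicate 1 the value was -1.01 and no longer called.

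Some further members, named after their values were seen, stood out in mutations 2 or 3. SNORD12C, in ZFAS1, had 2, 3 and 1 counts in wild type, 12, 15 and 12 with mutation 1, 11, 9 and 8 with mutation 2, and 9, 3 and 6 with mutation 3, and was the only member called higher in all 3 comparisons with wild type. It rose by 2.20 ± 0.48 with mutation 2 while ZFAS1 fell by 0.59. SNORD60, in SNHG19, had 2, 1 and 2 counts in wild type, 2, 2 and 3 with mutation 1, 4, 8 and 7 with mutation 2, and 1, 2 and 3 with mutation 3, and was called higher with mutation 2 in the fit of all members (1.88 ± 0.54). SNORD15B, in RPS3, had 3, 4 and 2 counts in wild type, 13, 10 and 14 with mutation 1, 6, 5 and 17 with mutation 2, and 1, 3 and 2 with mutation 3. Its highest mean was with mutation 1 (2.23 ± 0.50). Its call with mutation 2 (1.61 ± 0.52) was lost without mutation 2 replicate 3 (0.99, adjusted p = 0.232) and without wild-type replicate 2 or 3. SNORA68B, in ANKRD27, had 0, 0 and 1 counts in wild type, 8, 4 and 4 with mutation 1, 0, 1 and 1 with mutation 2, and 10, 8 and 9 with mutation 3. SNORD124, in MED24, had 0, 1 and 2 counts in wild type, 7, 4 and 3 with mutation 1, 2, 2 and 0 with mutation 2, and 11, 6 and 9 with mutation 3. For these last 2 genes mutation 3 held the highest mean, 29.3 times wild type for SNORA68B (counting interval 4.83 to 1200) and 9.41 times for SNORD124 (2.88 to 48.6). Their hosts ANKRD27 and MED24 differed from wild type by 0.14 and -0.11 with mutation 3. With all libraries SNORD83A, in RPL3, was the only member called lower with mutation 3. It had 4, 11 and 8 counts in wild type and 4, 2 and 1 with mutation 3 (-1.55 ± 0.51). It lost that call without wild-type replicate 2 or 3 or mutation 3 replicate 2 or 3, with values of -1.48 to -1.26. Without wild-type replicate 1, SNORD100 (-1.11) and SNORA26 (-1.54) were also called lower with mutation 3.

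SNORA69, which reaches into an exon of RPL39, and SNORD73B, in RPS3A, held 0 counts in all wild-type libraries. SNORA69 had 9, 23 and 11 counts with mutation 1 and was at least 5.48-fold higher than wild type. SNORD73B had 14, 9 and 3 and was at least 3.28-fold higher, both against a floor of 3 counts per library. Both were called in the fit of all members. They entered that fit through mutation 1, which held 43 of the 46 counts of SNORA69 and 26 of the 31 of SNORD73B. Their calls are therefore a description. Other members had no call with mutation 1. SNORD17, in SNX5, had 10, 7 and 9 counts in wild type and 13, 11 and 10 with mutation 1 (0.59 ± 0.52, adjusted p = 0.323). SNORA11F, without a host, had 5, 7 and 6 in wild type and 2, 5 and 2 with mutation 1 (-0.76 ± 0.44), and SNORA12 had 1, 4 and 7 and 3, 2 and 2. Differences of this size could not be shown at this depth.

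Nearly all members lie inside other genes. GENCODE places 46 of the 53 in an intron of a host and 4 across a host exon, and leaves SNORD3B-2, SNORA11F and 1 of the 2 SNORA75 genes without a host. The 50 lie in 42 hosts, and 37 of the 50 are in protein-coding genes. Intron lengths were compared only among genes in an intron that touch no host exon. There 26 C/D box members sat in shorter introns than 154 of the 281 SNORD genes under 30 counts. The medians were 535 against 1422 bases of intron, and 131 against 697 bases to the next exon. Restricted to hosts with 1000 or more counts the intron medians were 536 (25 genes) against 1506 bases (37 genes). For the H/ACA box class they were 1081 (18 genes) against 3568 bases (52 genes), and 191 against 1593 bases to the next exon. Of the SNORD genes in such hosts, 1 of 26 members touched a host exon and 74 of 111 genes under 30 counts did. Per the file headers, read pairs that overlap more than 1 gene were not assigned to any.

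Members and hosts did not move by like amounts with mutation 1. Over all 50 members with a host, the member's log2 fold change was above the host's for 46. The rule that chose the members counts mutation 1 and was not applied to the hosts, so it favours members that are high with mutation 1. The values for members beside hosts are therefore a description. The medians were 2.43 for members and 0.40 for the 42 hosts. Of these hosts 29 were called higher and 10 lower, where 32.5% and 36.5% of all genes tested were. Across the 50 pairs, which share hosts and libraries, Pearson's r was 0.35 and Spearman's rho 0.39, given as a description. The counts of the 50 members per 10000 counts of their 42 hosts were 7.77, 13.7 and 15.3 in wild type, 73.0, 74.2 and 79.3 with mutation 1, 17.1, 17.1 and 17.7 with mutation 2, and 18.9, 19.6 and 19.6 with mutation 3. Mutation 1 was 6.17 times wild type, or 5.22 times without wild-type replicate 1. Without SNORD14E and SNORD104 and their hosts the ratio was 4.69, or 3.83. In the 12 members of ribosomal protein genes alone, counts per host count were 4.94 times wild type for mutation 1, 1.75 for mutation 2 and 0.693 for mutation 3. Without wild-type replicate 1 these ratios were 3.94, 1.39 and 0.552. With mutation 2, 39 of the 50 members were above their host, with medians of 0.52 and -0.12. With mutation 3, 31 were, with medians of 0.51 and 0.28. In bulk libraries a change in the share of cells and in RNA per cell cannot be told apart.

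**Figure D4:**
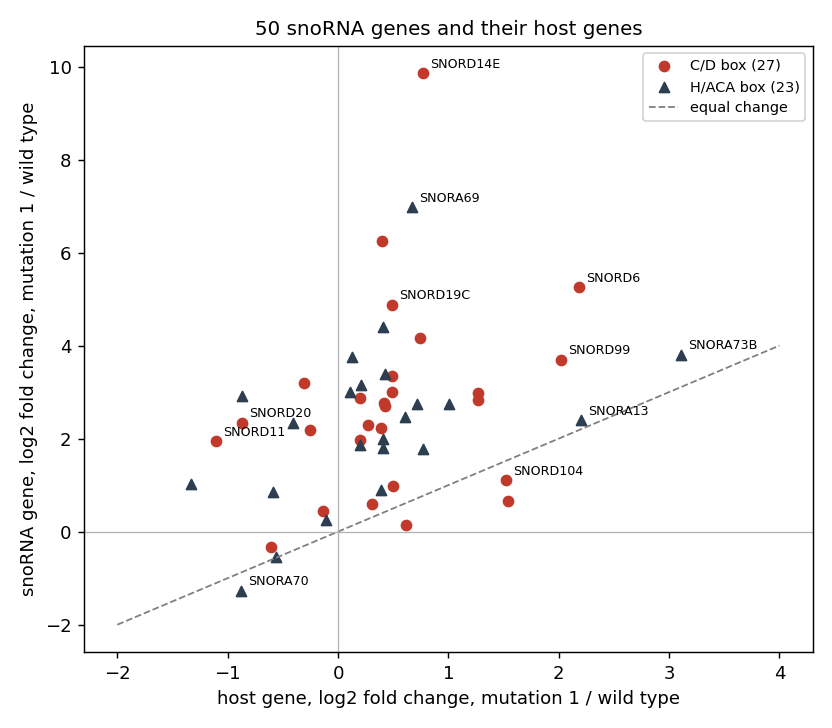
Log2 fold change with mutation 1 against wild type for 50 snoRNA genes (vertical axis) and their host genes (horizontal axis), with C/D box genes as circles, H/ACA box genes as triangles and equal change as a dashed line. Of the 50 points 46 lie above the line, with SNORD14E farthest from it and SNORA70 below 0 on both axes. The snoRNA genes were chosen on counts that include mutation 1, and the hosts were not.

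By kind of host, the median log2 fold change with mutation 1 in the fit of all members was 2.79 for the 12 members in ribosomal protein genes (2.34 with the 2 genes absent from wild type at their lower bounds), 2.47 for 25 in other protein-coding genes and 2.0 for 13 in noncoding genes. Of the 25, 16 were called higher and none lower, and of the 13, 9 were called higher and 1 lower, beside the 62.8% of all genes called in either direction. With mutation 3 the medians were 0.06, 0.68 and 0.94. The 12 in ribosomal protein genes gave no call higher and 1 lower, beside 52.9% of all genes called in either direction.

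Among the mRNAs of the proteins that build these RNAs, no core or assembly gene was called higher with mutation 1 with all libraries, where 32.5% of all genes tested were called higher and 36.5% lower. Of the 4 C/D box core proteins, NOP58 fell from 80.8 ± 5.76 to 37.4 ± 0.853 CPM (SD, n = 3; log2 fold change -1.11) and NOP56 from 232 ± 61.9 to 122 ± 2.72 CPM (-0.93). The methyltransferase FBL gave -0.01 and SNU13, which binds the box motif, -0.10 (adjusted p = 0.0805). Of the 4 H/ACA box core proteins, the pseudouridine synthase DKC1 fell by 0.53, GAR1 by 0.52 and NOP10 by 0.21, and NHP2 gave 0.33 (adjusted p = 0.0514), or 0.56 and called without wild-type replicate 1. Of 15 assembly and trafficking genes, 10 fell and none rose. They include RUVBL1 (-1.60), a helicase of the assembly machinery, the cap methyltransferase TGS1 (-2.12), the transport adaptor PHAX (-1.28) and SHQ1 (-1.11), a DKC1 chaperone. Without wild-type replicate 1 the assembly list gave 1 higher, TCOF1 (0.16), and 11 lower, where 82.7% of all genes were called in either direction.

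Among 23 tested genes for release, trimming and decay, 15 fell and 6 rose with mutation 1, with a median of -0.43, where 32.5% of all genes were called higher and 36.5% lower. DBR1, the enzyme that opens intron lariats, had 16.4, 18.6 and 17.4 CPM in wild type, 3.94, 3.09 and 4.47 with mutation 1, 15.8, 15.5 and 15.8 with mutation 2, and 9.83, 9.87 and 8.97 with mutation 3. Mutation 1 was lowest and mutation 3 next, without overlap. DBR1 fell by 2.19 with mutation 1 and 0.87 with mutation 3. TOE1, a deadenylase that trims small nuclear RNA ends, had 19.0, 16.4 and 18.5 CPM in wild type, 3.31, 3.42 and 3.03 with mutation 1, 20.3, 20.3 and 19.9 with mutation 2, and 5.57, 5.03 and 5.19 with mutation 3. It fell by 2.46 with mutation 1 and 1.77 with mutation 3. The exosome subunit EXOSC6 fell by 1.60, while ZCCHC7, of the complex that adds short tails to nuclear RNA for decay, rose by 0.73. With mutation 2 the release list gave 2 higher and 3 lower, where 16.9% and 20.1% of all genes were. Without wild-type replicate 1 the list gave 7 higher and 8 lower, where 67.9% of all genes were called in either direction. With mutation 3 it gave 7 higher and 10 lower, where 28.1% and 31.2% were. Whether these mRNA levels bear on the snoRNA counts was not tested.

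**Figure D5:**
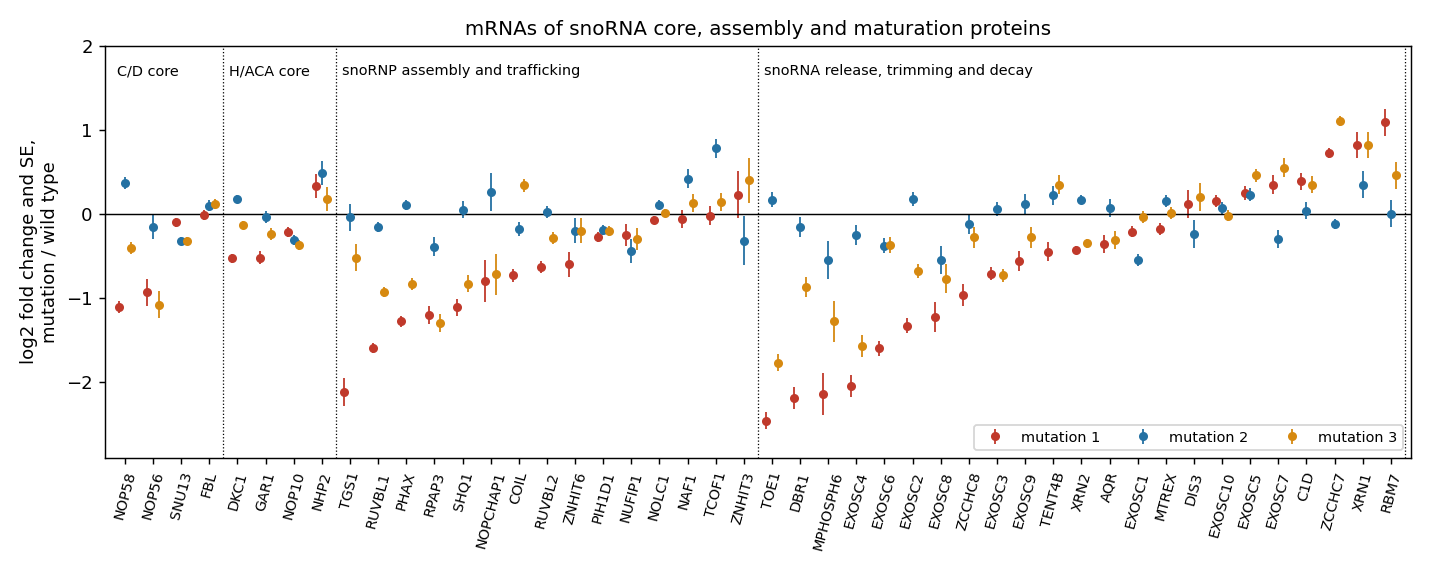
Log2 fold change against wild type and SE (vertical axis) for the mRNAs of 46 tested genes of snoRNA core, assembly and maturation proteins, grouped by list, with one colour per mutation. TOE1, DBR1, MPHOSPH6, TGS1 and EXOSC4 lie below -2 with mutation 1 and nearer 0 with mutation 2.

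In the wider pathway, 20 of 29 tested genes of ribosomal RNA synthesis and processing fell with mutation 1 and 5 rose, with a median of -0.67 beside -0.04 over all genes tested, of which 36.5% were called lower and 32.5% higher. UTP3, a processing factor, fell by 2.53 and BOP1, of the large-subunit pathway, by 1.43, and UBTF, the polymerase I transcription factor, by 1.37. Of 17 tested noncoding snoRNA hosts, 15 rose and none fell, beside the same shares, led by SNHG3 (3.11), EPB41L4A-AS1 (2.20), SNHG16 (2.17) and SNHG12 (2.02). Of 7 microRNA processing genes, DGCR8, which binds primary microRNA hairpins, fell by 3.65, TARBP2, a Dicer partner, by 2.06 and DROSHA by 0.32, and AGO2 rose by 1.72. Other small RNAs were hardly counted: 21 small structured RNA genes such as RMRP and the Y RNAs held 74 counts in all, with 10 of them at 0, and 21 Cajal body RNA genes held 203. The Cajal body genes, which share the box motifs, summed to 0.263 to 1.06 CPM in wild type, 1.06 to 2.08 with mutation 1, 0.634 to 1.10 with mutation 2 and 1.26 to 1.83 with mutation 3, and none passed the filter.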

How the data were processed

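Poly(A)-selected RNA from 12 libraries of transfected MDA-MB-231 cells was counted per gene. The values are whole-number counts that the authors deposited without normalization. Per the file headers, read pairs were counted with featureCounts 2.0.6 over exons by gene ID in a UCSC hg38 Ensembl gene file, without strand, with mapping quality of 10 or more, and with pairs that overlap several genes or map to several places not counted. STAR, cutadapt 1.9.1, DESeq2, SAMtools and FastQC 0.11.8 are listed in the submitters' processing notes.

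Library totals were 13507341 to 17078273 counts. Symbols were found for 56105 of 64252 gene IDs (87.3%). Hosts, positions and sequences came from GENCODE release 29 (GRCh38). Genes passing edgeR's filter (15094) were fitted in edgeR 4.0.16 with TMM scaling and robust quasi-likelihood tests over all 12 libraries (8 residual degrees of freedom), and p-values were adjusted by Benjamini-Hochberg over all genes of the fit. CPM values use TMM-scaled library sizes. Alternatives were other filters, DESeq2 1.42.0, its size factors, fits of 2 groups alone, other member limits and leaving out each library. The fit was tested on simulated data.

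The members, lists and tests were chosen with earlier results of these data known. Named members were the 8 C/D box and 8 H/ACA box genes of highest mean CPM, the 3 largest called changes in each direction per comparison whose groups do not overlap (1 CPM or more in the higher group), genes of hosts with 3 or more members, up to 8 members differing most from their host, own-promoter genes, and 3 genes on each side of the limit; also their hosts, the core proteins, DICER1 and up to 4 genes per list of lowest adjusted p. The lists were C/D box and H/ACA box core proteins, assembly and trafficking, release, trimming and decay, ribosomal RNA synthesis, noncoding hosts, other small structured RNAs, Cajal body RNAs, microRNA processing, and 2 marker lists. One member enters every count and sum and is not reported singly here.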

Additional observations from a re-analysis of the deposited data

How the results depend on the processing

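Counts of members called against wild type were 26 for mutation 1, 4 for mutation 2 and 8 for mutation 3, and 22, 22 and 11 for mutation 1 against 2, 1 against 3 and 2 against 3. With only the libraries of the groups compared, mutation 2 against wild type gave 1 of 8 tested, mutation 3 gave 2 of 5 and mutation 2 against 3 gave 6 of 9, since fewer members passed the filter. With no filter beyond 1 count, mutation 2 gave 2. A limit of 100 counts for members left 17 of 18 for mutation 1, 2 for mutation 2 and 14 for mutation 1 against 3. In the fit of genes with 30 or more counts without wild-type replicate 1, an alternative added after seeing the data, the calls were 9 for mutation 2, 14 for mutation 3, 38 for mutation 1 against 2, 34 for 1 against 3, 19 for 2 against 3, and 43 for any difference. Leaving out each library in turn gave 25 to 32 calls for mutation 1, 2 to 7 for mutation 2, 7 to 11 for mutation 3, 20 to 33 for mutation 1 against 2, 19 to 29 for 1 against 3, 7 to 15 for 2 against 3, and 25 to 35 for any difference (27 with all libraries). For mutation 2 the count was 7 without wild-type replicate 1, and 2 without mutation 1 replicate 1 or mutation 2 replicate 3; for mutation 2 against 3 it was 7 without mutation 3 replicate 3. Of 73 called differences of named members, none changed sign under these alternatives and 10 lost the call under at least 1. SNORD14E, mutation 2 against wild type (ratio 4.45, counting interval 1.22 to 24.3, edgeR adjusted p = 0.0402), lost it in 10, DESeq2 among them; SNORA70 lost it without mutation 1 replicate 1. Without SNORD14E the ratio of summed CPM of SNORD genes, mutation 1 to wild type, was 4.20 in place of 8.80. With total counts as the library size it was 7.60, and 4.12 in place of 4.75 for SNORA genes. No paired analysis was possible because the mutation libraries carry no replicate numbers in the labels. Under 30 counts over 12 libraries, single genes could not be compared at this depth.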
